A study of Homo sapiens with 12 samples.

Results

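The genes described here are those named RBM (RNA-binding motif) followed by a digit or X in tables of N6-methyladenosine (m6A) on polyadenylated RNA. RBM15 and RBM15B, subunits of the m6A writer complex, were left out by the rule. It found 39 of the 16417 genes listed in any of the 4 tables, 36 protein-coding genes and 3 antisense long non-coding RNAs, and all 39 matched a RefSeq gene. The cells were NOMO-1, a human acute myeloid leukaemia line, infected with lentivirus that carried sgMETTL16-1 or sgMETTL16-2, which target METTL16, or sgNS as a negative control. All 3 groups were selected with puromycin and expanded in its presence, and the labels give no clone, so each is taken as an infected population. For each guide, 2 input libraries and 2 libraries immunoprecipitated with an m6A antibody (IP) were sequenced, 12 in all. In the 4 tables deposited, the authors compared a knockout with sgNS, once for each METTL16 guide and replicate number. The tables hold no value per library, so no spread between libraries can be given, and nothing says that replicate numbers were separate cultures.

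RBM proteins carry RNA recognition motifs, and most act on pre-messenger RNA in the nucleus: they choose splice sites, build the spliceosome, mark exon junctions or hand RNA to the exosome. Others work in the nucleolus or on mature messenger RNA, where they alter stability, editing or translation. METTL16 is an RNA methyltransferase that works apart from the METTL3-METTL14 complex, which makes most m6A in messenger RNA, and its known substrates are U6 small nuclear RNA and hairpins of MAT2A messenger RNA. A few RBM proteins are tied to m6A themselves, among them RBMX (hnRNP G), which binds m6A-modified RNA, and RBM33, which binds the demethylase ALKBH5.

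Each row of a table is a window of a transcript, often split into blocks over several exons. The log2 fold change compares IP over input in knockout with that in sgNS. A negative value is read here as less m6A in knockout, as the software with these column names usually defines it; the tables do not say so, and the reverse definition would turn every direction given. A window was called lower or higher when the authors' false discovery rate (FDR) of this difference was under 0.05, and enriched, meaning that it carries an m6A signal over input, when their FDR of IP over input was under 0.05. Fewer methylated transcripts and less m6A at a site of each transcript cannot be told apart in such windows.

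Windows at the very start of a transcript give the only sequences shown, because the RefSeq tables used hold the bases around gene starts (build GRCh38.p14) and no others. In 4 members, RBM14, its readthrough RBM14-RBM4, RBM34 and RBM42, an enriched window covered all of the first 50 transcribed bases in 3 tables. The first 30 of these are shown 5′ to 3′, with capitals for GGAC, a core of the motif favoured by METTL3-METTL14, wherever it occurs.
RBM14, chr11:66616630-66616659, plus strand: attcctgaggaGGACtgccggtcgttcgga
RBM34, chr1:235161221-235161250, minus strand: agtctgggagtctttggagtaagaatggcc
RBM42, chr19:35629036-35629065, plus strand: gcttttgctGGACgtcatcctcgggagccc
RBM14-RBM4 starts at the same base as RBM14 and has the same sequence. On the transcribed strand, GGAC lay in the first 50 bases of 18.9% of 35116 RefSeq starts (6632), and of 8 of the 34 members whose start was looked up. AGAC, which cannot overlap a GGAC match, lay in 16.5% of all starts and in those of 6 members. TACAGAGAA, the METTL16 recognition sequence in U6 and MAT2A written as DNA, lay in 11 of all starts (0.0313%) and in 0 of the 34. The shares of all are of starts, while a member counts once if any of its starts matched, and 2 members have more than 1 start. RBM14 and RBM14-RBM4 have the same start and are counted as 2 of the 8 with GGAC. A match is a string of letters in this window, not a methylated site.

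None of the start windows was called. In the authors' deposited tables RBM42, a protein of the U4/U6.U5 tri-snRNP, had an enriched start window in all 4 comparisons. For sgMETTL16-1 the authors' deposited log2 fold changes were 0.09 in replicate 1 and 0.12 in replicate 2, and for sgMETTL16-2 they were 0.24 and 0.01. RBM34, a nucleolar protein, had 0.22 in replicate 2 of sgMETTL16-1 and 0.51 and 0.35 in replicates 1 and 2 of sgMETTL16-2, per the authors' deposited tables. RBM14, a coactivator of transcription found in paraspeckles, was enriched in the same 3 tables of the authors, with deposited values of 0.27, 0.54 and -0.07. Every start value of RBM42 and RBM34 was thus above 0, and that of RBM14 lay on both sides of it.

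In the family as a whole, m6A differed between knockout and sgNS at few windows. All calls of the replicate 1 tables were lower, and both calls of the replicate 2 tables, in 1 stretch of RBM25, were higher. Over all windows too, more were called higher than lower in the replicate 2 tables. Which sgNS libraries entered each table is not given, so tables may share them, and their values are set side by side only. Per the authors' deposited tables, 5 of 220 RBM windows (2.27%) were called lower for sgMETTL16-1 in replicate 1, where 0.281% of all windows were, and 0 were called higher (0.0743% of all). The authors' deposited table of sgMETTL16-2 for replicate 1 had 4 of 207 windows called lower (1.93%), against 0.965% of all windows, and 0 higher (0.875% of all). In replicate 2 the authors' deposited tables called 0 of 182 lower for either guide, against 0.167% of all windows for sgMETTL16-1 and 0.149% for sgMETTL16-2. Each of these replicate 2 tables called 1 of 182 higher (0.549%), against 0.583% and 0.586% of all windows. In either direction, 0.355% and 0.749% of all windows were called for sgMETTL16-1 (replicates 1 and 2) and 1.84% and 0.734% for sgMETTL16-2. So the share called lower of RBM windows was above that of all windows in both replicate 1 tables, but for sgMETTL16-2 this rests on 4 windows. Of these 4, 2 were of RBM26, and 2 were left among enriched windows alone or at an FDR of 0.01. The share called higher in replicate 2 was near that of all windows. An unadjusted deposited p under 0.05 gave 15 and 1 lower RBM windows for sgMETTL16-1 in replicates 1 and 2. For sgMETTL16-2 it gave 15 and 2. Among all windows, 2.93% and 2.01% were lower at that p for sgMETTL16-1, and 3.97% and 2.15% for sgMETTL16-2. The RBM share was thus above that of all in both replicate 1 tables and below it in both replicate 2 tables. The higher RBM windows at that p numbered 5 and 8 for sgMETTL16-1 and 10 and 4 for sgMETTL16-2 in the authors' deposited tables. Among all windows, 1.9264% and 3.7952% were higher for sgMETTL16-1, and 4.2368% and 3.9999% for sgMETTL16-2. The RBM share of higher ones was near that of all, and below it for sgMETTL16-2 in replicate 2. The called windows lie in 6 genes: RBMX, RBM25, RBM39, RBM26, RBM28 and RBM12B. Windows of 1 gene share their transcripts and are not independent of each other.

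**Figure D1:**
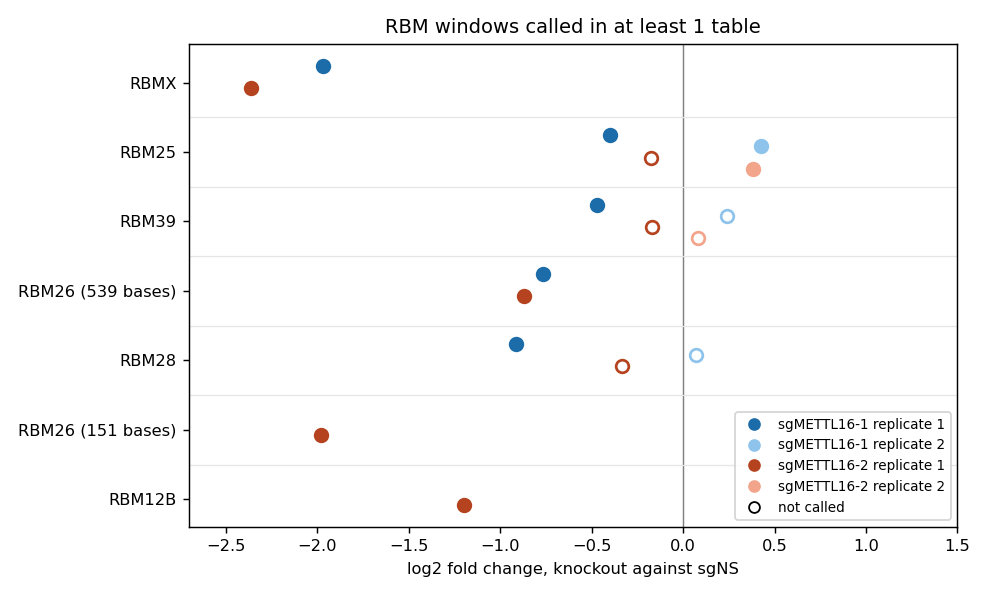
Log2 fold change of knockout against sgNS (horizontal axis) of the 7 RBM windows called in at least 1 table. There is 1 row per window and 1 colour per deposited table, with filled points for called windows and open points for windows not called. A point is missing where no window of that table passed the matching on shared bases, though an overlapping window may be listed. All filled points of the replicate 1 tables lie below 0 and both filled points of the replicate 2 tables, those of RBM25, lie above 0.

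Among splicing regulators, RBMX had the largest called change. RBMX, a heterogeneous nuclear ribonucleoprotein that regulates exon choice and chromatid cohesion, lies on the minus strand of chromosome X (136869192 to 136880725, GRCh38). Its enriched window in the authors' deposited table of sgMETTL16-2 replicate 1 ran from 136875122 to 136879026. It held 298 bases in 4 blocks, began 1699 bases from the gene start, and its last 3 blocks (115, 126 and 47 bases) held nearly all of these bases. The log2 fold change there was -2.36 (FDR 1e-27) in the authors' deposited table. For sgMETTL16-1 in replicate 1 the matching window, from 136875151, had -1.97 (FDR 7.94e-21) in the authors' deposited table. Fold enrichment of IP over input was 2.32 for sgMETTL16-2 and 2.29 for sgMETTL16-1 in the same tables. Both guides therefore had less m6A there in replicate 1, and by log2 fold change the window ranked 3 from the lowest of 7762 enriched windows for sgMETTL16-2 and 2 of 6426 for sgMETTL16-1.

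Neither replicate 2 table gives a value for that RBMX window. The authors' deposited table of sgMETTL16-1 replicate 2 lists a single RBMX window near the 3′ end (136869670 to 136869759, log2 fold change -0.08, not enriched), and that of sgMETTL16-2 replicate 2, as used here, has none. The other RBMX windows of the replicate 1 tables were not called, with deposited values of -0.32 for sgMETTL16-1 and -0.49 for sgMETTL16-2. RBMX has near-identical processed copies, among them RBMXL1, and how the authors assigned reads shared by them is not given in the sources used here, so the RBMX values are uncertain in that respect. RBMXL1 itself, a retrogene of RBMX on chromosome 1, had no called window among the 37 in the authors' deposited tables. Its most enriched window (88983016 to 88983196) had a deposited log2 fold change of 0.13 for sgMETTL16-2 in replicate 1. Other RBMXL1 windows of that table, none of them enriched, lay mostly below 0, the neighbour at 88982508 to 88982926 at -1.62, and the median of all 9 was -0.81. In the other deposited tables the RBMXL1 medians were -0.17 and -0.47 for sgMETTL16-1 (replicates 1 and 2) and 0.26 for sgMETTL16-2 in replicate 2.

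**Figure D2:**
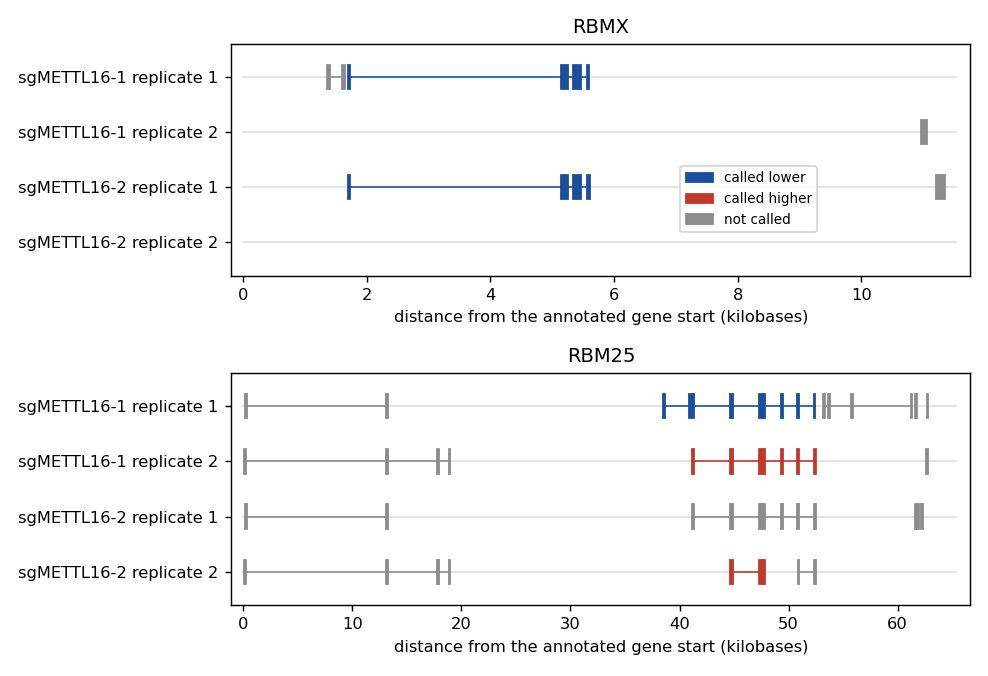
Blocks of every listed window of RBMX (upper panel) and RBM25 (lower panel) by distance from the annotated gene start in kilobases (horizontal axis), 1 line per deposited table, with the blocks of 1 window joined by a thin line, blue for windows called lower, red for those called higher and grey for those not called. The RBMX window called lower appears in both replicate 1 tables and in neither replicate 2 table, while about the same stretch of RBM25 is called lower in 1 table and higher in 2.

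RBM25, which associates with the U1 small nuclear ribonucleoprotein and promotes use of 5′ splice sites, was the one member called in both directions. Its window on the plus strand of chromosome 14 (73099722 to 73111022, 1046 bases in 7 blocks) was enriched in all 4 tables, with deposited fold enrichments of 1.46 and 1.60 for sgMETTL16-1 (replicates 1 and 2) and 1.65 and 1.51 for sgMETTL16-2. In replicate 1, the authors' deposited log2 fold change was -0.40 for sgMETTL16-1 (FDR 7.76e-09, lower) and -0.18 for sgMETTL16-2 (FDR 0.0631, not called). In replicate 2, the authors' deposited tables gave 0.43 for sgMETTL16-1 (FDR 5.01e-12, higher) and 0.38 for sgMETTL16-2 (FDR 2.75e-07, higher). Both replicate 1 values lay below 0 and both replicate 2 values above it, so the 2 tables of a guide disagree at this window. When values were centred on the median enriched window, sgMETTL16-2 in replicate 1 was called lower as well (FDR 0.000177). The window differed in extent: the deposited table of sgMETTL16-1 replicate 1 starts it at 73097001. For sgMETTL16-2 in replicate 2 the value of 0.38 is of only 539 bases of it, from 73103192 to 73106224. A separate enriched window there, with blocks of 137 and 192 bases at the end of the same stretch, was at -0.10 and not called. The values above 0 in replicate 2 of that guide thus do not cover the whole stretch.

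RBM39 (CAPER alpha), a splicing factor and coactivator that binds U2AF65, also had values below 0 in replicate 1 and above 0 in replicate 2, with 1 call. Its window on the minus strand of chromosome 20 (35731958 to 35740835, 240 bases in 3 blocks) was enriched in all 4 deposited tables. It was called lower for sgMETTL16-1 in replicate 1 at a deposited log2 fold change of -0.47 (FDR 8.13e-05). The authors' deposited tables gave 0.24 (FDR 0.151) for sgMETTL16-1 in replicate 2, and -0.17 (FDR 0.385) and 0.08 (FDR 0.65) for sgMETTL16-2 in replicates 1 and 2, none of them called. RBM23, the close paralogue of RBM39, had an enriched window in all 4 tables, at chromosome 14 (22901213 to 22901832), with deposited log2 fold changes of 0.10 and 0.03 for sgMETTL16-1 and 0.19 and 0.03 for sgMETTL16-2. These 4 values all lay above 0 and none was called. A further RBM39 window at the gene start (35741978 to 35742246), enriched for sgMETTL16-2 in replicate 2 alone, was at 0.25 there and at -0.27 for replicate 1, as the authors deposited them, and called in neither table.

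RBM5, RBM6 and RBM10, related proteins that promote exon skipping and count as tumour suppressors, had 10, 10 and 6 enriched windows over the 4 deposited tables and no call. Their enriched windows had low fold enrichments, 1.21 to 1.69 in the authors' deposited tables. An RBM5 window that all 4 tables list as enriched (chromosome 3, 50115918 to 50117298) had deposited log2 fold changes of 0.02 and 0.03 for sgMETTL16-1 and 0.15 and -0.07 for sgMETTL16-2. It shares bases with SEMA3F-AS1 on the opposite strand. Closest to a call was an RBM6 window (50075219 to 50077074), at a deposited value of 0.50 (FDR 0.0776) for sgMETTL16-1 in replicate 2 and of 0.19 (FDR 0.65) for sgMETTL16-2 in replicate 2, by the authors' tables. RBM4, RBM4B and the heart splicing factor RBM20 had listed windows but no enriched one under their own names. Enriched windows listed under RBM14-RBM4 in replicate 2 lie within the span of RBM4 (66638703 to 66668380) on the same strand. They ran from 66643482 to 66644019 for sgMETTL16-1 and from 66643452 to 66646085 for sgMETTL16-2. How such signal divides between the 2 names cannot be told here. In all, of 11 splicing regulators 8 had an enriched window. In replicate 1, the deposited tables called 3 of their 45 windows lower for sgMETTL16-1 and 1 of 43 for sgMETTL16-2, against 0.281% and 0.965% of all windows, and none higher. In replicate 2 they called 1 of 45 higher for sgMETTL16-1 and 1 of 44 for sgMETTL16-2, against 0.583% and 0.586% of all windows, and none lower.

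No window of the 6 spliceosome components was called in any deposited table, and 5 of these genes had an enriched window. They had 34 and 32 windows for sgMETTL16-1 (replicates 1 and 2) and 30 and 28 for sgMETTL16-2. Of all windows, 0.355%, 0.749%, 1.84% and 0.734% were called in that order, so 0 calls among so few windows is near the share of all. RBMX2, a protein of the activated spliceosome, had an enriched window near its 3′ end in all 4 tables (chromosome X, 130411430 to 130412714, 942 bases from the gene end). The authors' deposited values of log2 fold change were -0.20 and 0.30 with guide sgMETTL16-1, then 0.08 and 0.23 with sgMETTL16-2, with fold enrichments of 1.62, 2.32, 2.04 and 2.31 in that order. RBM17 (SPF45), which binds the 3′ splice site factors, had a strongly enriched window on chromosome 10 (6115584 to 6115792), with a deposited fold enrichment of 6.34 for sgMETTL16-1 and 1.82 for sgMETTL16-2 in replicate 2. Its deposited log2 fold changes there were -0.12 and -0.30. Longer enriched windows over the same place in the replicate 1 tables were at 0.06 for sgMETTL16-1 (6115494 to 6115941, deposited fold enrichment 3.34) and -0.30 for sgMETTL16-2 (6115524 to 6116000, fold enrichment 3.80). RBM48, a minor spliceosome protein, was at -0.39 and -0.12 for sgMETTL16-1 and at -0.97 in replicate 1 of sgMETTL16-2 in the authors' deposited tables, the last with an FDR of 0.209. This RBM48 window was enriched in the replicate 1 tables and not for sgMETTL16-1 in replicate 2. RBM22, of the catalytic spliceosome, had 1 enriched window in 1 table, and RBM41, a U12-binding protein, had none among 42.

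Among the exon junction, exosome adaptor and export genes, RBM26 was called lower with both guides in replicate 1. RBM26 and its paralogue RBM27 are zinc finger proteins linked to the nuclear exosome targeting of polyadenylated RNA. For sgMETTL16-1 in replicate 1, the RBM26 window at chromosome 13 (minus strand, 79337120 to 79344676, 539 bases in 5 blocks) had a deposited log2 fold change of -0.77 (FDR 0.00457). For sgMETTL16-2 in replicate 1, the matching window (79334419 to 79341209) had -0.87 (FDR 0.00741) in the authors' deposited table. That table called another RBM26 window, 151 bases from 79342764 to 79344676, at -1.98 (FDR 0.0132), but this one was not enriched. Neither replicate 2 table lists a match of these windows, and the enrichment of the first was close to its threshold (FDR 0.049 for sgMETTL16-1 and 0.0309 for sgMETTL16-2 in the deposited tables).

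An RBM26 window nearer to the gene start (79368906 to 79377435) was enriched in all 4 tables and called in none. Its deposited log2 fold changes were -0.14 and 0.36 with guide sgMETTL16-1, then -0.09 and 0.09 with sgMETTL16-2. RBM27 was enriched in the replicate 1 tables alone, at -0.50 for sgMETTL16-1 and 0.20 for sgMETTL16-2 in the authors' deposited tables, neither called. RBM7, the RNA-binding subunit of the nuclear exosome targeting complex, had a window below 0 in all 4 deposited tables and called in none. Its values at chromosome 11 (114407521 to 114407851) were -0.59 and -0.19 with guide sgMETTL16-1, then -0.44 and -0.50 with sgMETTL16-2, with a lowest deposited FDR of 0.65. This RBM7 window was enriched in the replicate 1 tables alone. RBM33 had 11 enriched windows, and the most enriched one (chromosome 7, 155742095 to 155763817) had deposited fold enrichments of 2.04, 2.89, 2.61 and 2.79. RBM33 log2 fold changes there were 0.17 and -0.05 with guide sgMETTL16-1, then 0.33 and -0.03 with sgMETTL16-2, as the authors deposited them. RBM8A (Y14), a core subunit of the exon junction complex, had 33 listed windows, 2 enriched ones and no call. Its most enriched window (chromosome 1, 145923230 to 145923349) was at 0.74 for sgMETTL16-2 in replicate 1 and, not enriched, at -0.96 for sgMETTL16-1 in replicate 1, both with a deposited FDR above 0.65.

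RBM28, a nucleolar protein of ribosome assembly, was called lower once. The window (chromosome 7, minus strand, 128314771 to 128318019) had a deposited log2 fold change of -0.92 (FDR 0.0166) for sgMETTL16-1 in replicate 1, where it was not enriched. A shift by the median of all enriched windows ended this call (FDR 0.0849). The window had 0.07 (FDR 0.658) in replicate 2 of that guide and -0.34 (FDR 0.423) for sgMETTL16-2 in replicate 1, in the authors' deposited tables. For sgMETTL16-2 in replicate 2 no window passed the matching, but a longer enriched one (128310532 to 128321298, 1015 bases, deposited fold enrichment 2.19) spans this place and was at 0.22, not called. Another RBM28 window (128310532 to 128313252), enriched for sgMETTL16-1 in replicate 2, was at 0.19 there and at 0.11 for sgMETTL16-2 in replicate 1 in the deposited tables, not called, and the longer window spans it too. RBM34 had, beside its start window, one near its 3′ end (235131840 to 235131990) at -0.50 for sgMETTL16-1 in replicate 2 and at -0.71 and -0.17 for sgMETTL16-2, not called in the deposited tables. That RBM34 window was enriched for sgMETTL16-2 in replicate 1 alone. RBM19, a nucleolar protein needed for ribosomal RNA maturation, had enriched windows in all 4 tables and no call. Its most enriched window (chromosome 12, 113952518 to 113959327) was at -0.20 for sgMETTL16-1 in replicate 2 and at 0.23 and -0.03 for sgMETTL16-2 in the authors' deposited tables. A shorter enriched window inside it (113955147 to 113957897) was at -0.33 for sgMETTL16-1 in replicate 1, not called.

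Of the genes acting on mature messenger RNA, none was called. They had 22 and 22 windows for sgMETTL16-1 (replicates 1 and 2) and 31 and 25 for sgMETTL16-2. Of all windows, 0.355%, 0.749%, 1.84% and 0.734% were called in that order, so 0 calls is near the share of all here as well. RBM38, a p53-induced regulator of messenger RNA stability, had an enriched window reaching toward its 3′ end in all 4 tables (chromosome 20, 57392765 to 57408343). The authors' deposited log2 fold changes were -0.23 and 0.12 with guide sgMETTL16-1, then 0.02 and 0.04 with sgMETTL16-2. RBM3, the cold-inducible RNA-binding protein, had enriched windows in all 4 tables with deposited values of -0.11 to 0.18. RBM47, a cofactor of APOBEC1 editing, was among the most enriched members, with a deposited fold enrichment of 7.42 for sgMETTL16-1 and 6.84 for sgMETTL16-2 in replicate 1 at chromosome 4 (40425676 to 40426004). Such high values rested on little evidence: the FDR of IP over input was 0.0813 and 0.0316 in these deposited tables, and the log2 fold changes of 0.25 and 1.29 were not called. RBM43 had 25 listed windows and none enriched.

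In the remaining group, RBM12B had 12 enriched windows over the 4 tables, more than any other member. A different RBM12B window, of 359 bases in 1 block on chromosome 8, was called lower for sgMETTL16-2 in replicate 1 with a deposited log2 fold change of -1.20 (FDR 0.0447). It was not enriched, had no match in another table and lost its call with a two-sided p (FDR 0.119). Longer enriched RBM12B windows that overlap it in the other deposited tables were at -0.10 and -0.15 for sgMETTL16-1 (replicates 1 and 2) and at 0.24 for sgMETTL16-2 in replicate 2, none called. The most enriched RBM12B window was at -0.37 for sgMETTL16-1 and -0.71 for sgMETTL16-2 in the replicate 1 tables of the authors, not called in either, and is overlapped by the same replicate 2 windows. RBM12 (SWAN), its relative on chromosome 20, was enriched in all 4 tables at 35653574 to 35658959, with deposited values of -0.03 and -0.02 for sgMETTL16-1 and 0.10 and -0.30 for sgMETTL16-2. RBM14-RBM4 had an enriched window in all 4 tables downstream of the start, at -0.20 and -0.05 for sgMETTL16-1 and 0.17 and 0.11 for sgMETTL16-2 in the authors' deposited tables. RBM18 was enriched for sgMETTL16-1 in replicate 1 alone (chromosome 9, 122241133 to 122241550, deposited fold enrichment 6.68), where its log2 fold change was -0.13, against -0.45 in replicate 2 and -1.61 for sgMETTL16-2 in replicate 1, none called. RBM44 and RBM45 had no enriched window. The antisense RNAs RBM5-AS1 and RBM26-AS1 had no enriched window and RBM12B-AS1 had 1, at a deposited -0.20 for sgMETTL16-1 in replicate 1. Between 4 and 5 RBM windows per table shared bases with a listed window of another gene, on the same strand (RBM14 with RBM14-RBM4, RBMXL1 with KYAT3) or the opposite one, and none of these was called. Overlap with a gene that has no listed window at that place was not counted.

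**Figure D3:**
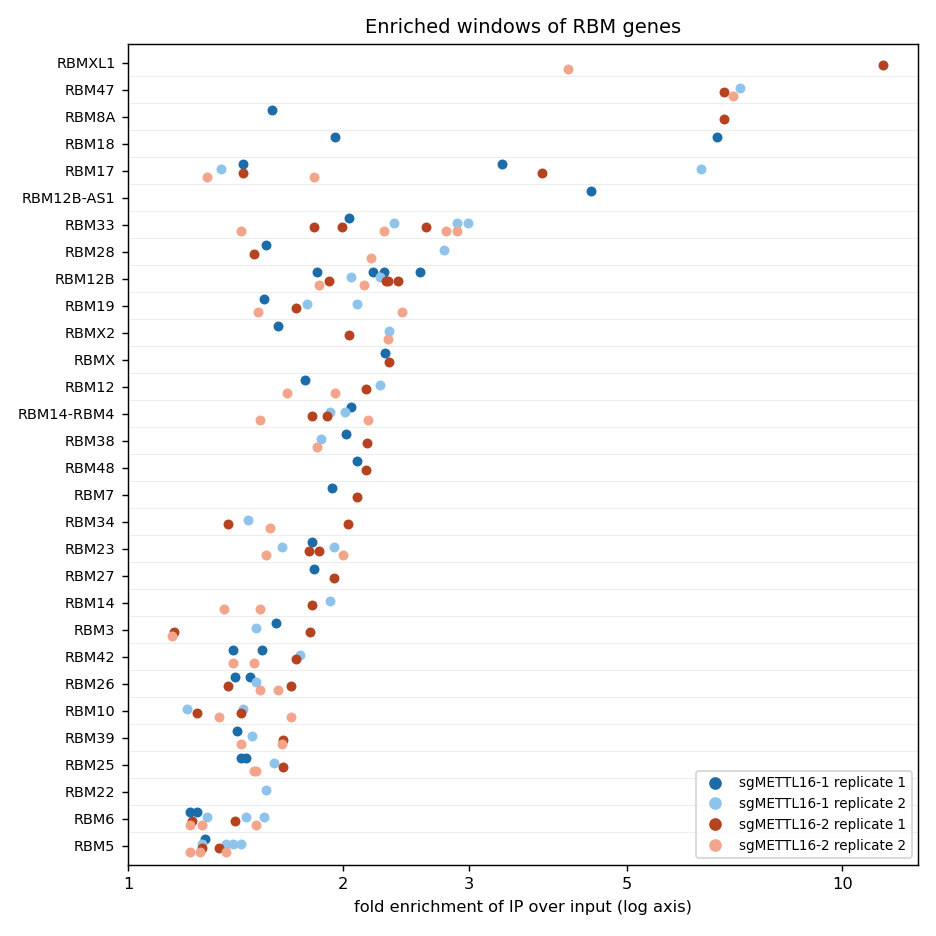
Fold enrichment of IP over input (horizontal log axis) of every enriched RBM window, 1 row per gene in the order of its highest value and 1 colour per deposited table. Of 30 genes shown, 17 have points of all 4 tables; RBM47, RBMXL1, RBM8A, RBM18 and RBM17 reach values above 6, while RBM5 and RBM6 lie below 2.

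The RBM genes carried enriched windows more often than the tables as a whole, a description for which no test was made. Per the authors' deposited tables, 33 of 220 RBM windows (15.0%) were enriched for sgMETTL16-1 in replicate 1, against 8.1% of all windows, and 35 of 182 (19.2%) in replicate 2, against 11.9%. The tables of sgMETTL16-2 had 41 of 207 (19.8%) in replicate 1, against 10.2%, and 41 of 182 (22.5%) in replicate 2, against 12.3%. Of the 39 genes, 30 had an enriched window in at least 1 table, 17 in all 4, 4 in 3, 6 in 2 and 3 in 1. Windows of all lengths enter these shares, and the median length of listed RBM windows was 150, 121, 151 and 121 bases in the order sgMETTL16-1 replicates 1 and 2, then sgMETTL16-2 replicates 1 and 2, against 121 for all windows of each table. The part of window length or transcript abundance in the shares was not tested.

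At the enriched windows, the median of the RBM values was below that of all enriched windows in each of the 4 tables, by small amounts for which no test was made. For sgMETTL16-1 in replicate 1 the median deposited log2 fold change of enriched RBM windows was -0.16, against -0.04 for all enriched windows, and 25 of 33 (75.8%) lay below 0, against 56.0%. For sgMETTL16-1 in replicate 2 the medians from the authors' deposited table were 0.11 for RBM and 0.13 for all, with 9 of 35 (25.7%) and 32.7% below 0. For sgMETTL16-2 the authors' deposited tables gave 0.07 for RBM and 0.13 for all in replicate 1, and 0.06 and 0.14 in replicate 2. There 18 of 41 RBM windows (43.9%) lay below 0 in replicate 1, against 36.6% of all, and 17 of 41 (41.5%) in replicate 2, against 32.5%. The sign of the middle value thus followed the table in RBM windows and in all enriched windows alike. Over all listed RBM windows, enriched or not, the deposited medians were -0.13 in replicate 1 and -0.0029 in replicate 2 of sgMETTL16-1, and -0.16 and -0.02 in those of sgMETTL16-2, against 0 in every table.

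**Figure D4:**
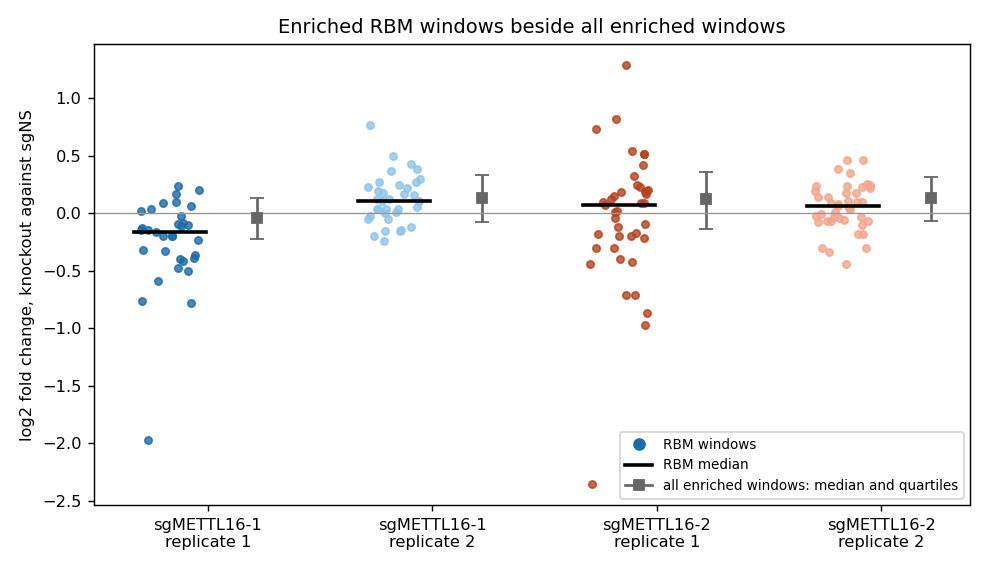
Log2 fold change of knockout against sgNS (vertical axis) of each enriched RBM window (points, spread sideways at random within a table, black bar at their median) beside the median and quartiles of all enriched windows of the same deposited table (grey square and bars). The RBMX points at -1.97 and -2.36 stand apart from the other RBM windows, and the RBM median lies below that of all enriched windows in each table.

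Enriched RBM windows lay near the 3′ end of their gene less often than all enriched windows, again as a description. Positions were taken against the ends of the RefSeq gene, within 1000 bases. By the authors' deposited tables, 12.1% and 14.3% of enriched RBM windows lay near the 3′ end for sgMETTL16-1 (replicates 1 and 2), against 34.9% and 30.7% of all. For sgMETTL16-2 the shares were 9.76% and 14.6%, against 32.5% and 30.5%. Those near the 5′ end made up 9.09% to 17.1% of enriched RBM windows and 14.1% to 17.1% of all. Most RBM windows lay near neither end, 81.8%, 68.6%, 73.2% and 70.7% in the order of the tables, against 54.8%, 55.9%, 54.1% and 55.4% of all. The window of RBMX and those of RBM25, RBM39 and RBM26 described as called are of this kind. Each RBM share rests on 33 to 41 windows, and the length of the genes was not taken into account.

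**Figure D5:**
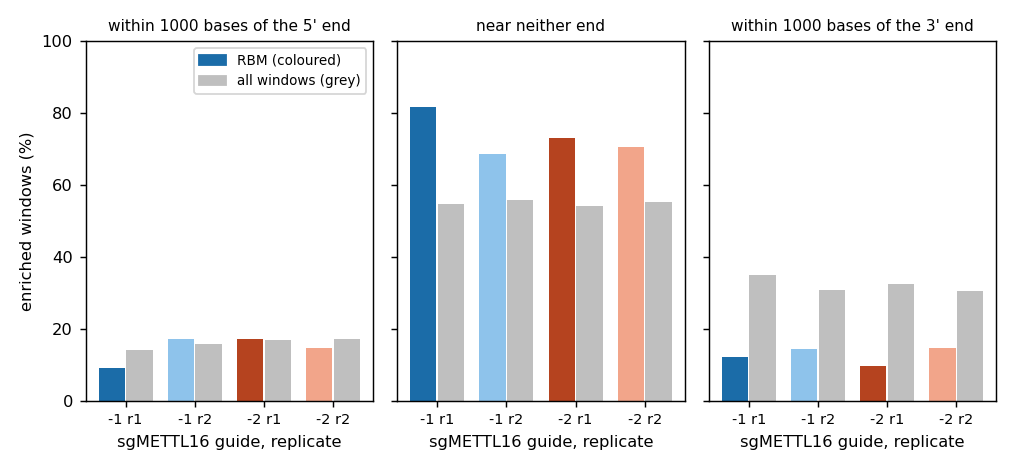
Share of enriched windows (percent, vertical axis) within 1000 bases of the 5′ end, near neither end and within 1000 bases of the 3′ end of their RefSeq gene, for RBM windows (coloured) and all windows (grey) of each deposited table, marked by guide (-1, -2) and replicate (r1, r2). The RBM bars near the 3′ end lie at 9.76% to 14.6%, below the grey bars at 30.5% to 34.9% in all 4 tables.

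Genes that work with the RBM proteins, 22 symbols in 4 lists, had called windows in both directions. Per the authors' deposited tables, 3 of 90 windows were lower and 0 higher for sgMETTL16-1 in replicate 1, where 0.281% of all windows were lower and 0.0743% higher. In replicate 2 of that guide 1 of 92 was lower and 4 higher, against 0.167% and 0.583% of all. For sgMETTL16-2 the authors' deposited tables had 3 of 91 lower and 5 higher in replicate 1, against 0.965% and 0.875% of all windows. They had 1 of 82 lower and 5 higher in replicate 2, against 0.149% and 0.586% of all. All but 1 of the lower windows were of the exon junction complex list. MAGOH, the partner of RBM8A in that complex, was lower in the replicate 1 tables at deposited values of -0.55 (FDR 0.0107) for sgMETTL16-1 and -1.20 (FDR 5.01e-08) for sgMETTL16-2. UPF3B, which links the complex to nonsense-mediated decay, had a window called lower in each of the 4 tables, at -0.59 to -0.86 in the authors' deposited values. The higher ones were of the exosome adaptor list (ZC3H18, PABPN1, SKIV2L2) and the U2 and U12 splicing list (U2AF2, U2AF1, SF1, SF3A1, SF3B1). SF3B1 had 1 window lower and another higher in the same deposited table. The cold-inducible CIRBP had no call.

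METTL16 itself had 5 to 7 windows and 0 called in the authors' deposited tables, with lowest FDRs of 0.133 to 0.635, and 0 called says nothing of its RNA, so the tables do not check the knockout. All 12 myeloid marker genes were listed in every table and 6 or 7 of them enriched. Listed in each table were 4 of 8 lymphoid, 2 of 6 erythroid and 2 of 5 stromal or epithelial markers. Of these listed genes, 0 or 2 lymphoid, 0 or 1 erythroid and 1 stromal or epithelial were enriched, depending on the table. The lists thus differ in the genes listed more than in the share of these enriched.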

How the data were processed

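The submitters' processing notes name STAR and GRCh38, with no version; the sources used here give no peak caller, annotation, depth or choice of sgNS libraries. Depth per library is therefore unknown. Per the file headers, the deposited tables hold the log2 fold change of the difference, fold enrichment of IP over input, and the log10 p-value and log10 FDR of both, as the authors made them. The number of a table was taken for that of its replicate. In strongly enriched windows (FDR of IP over input under 1e-10) the deposited p reached 0.514 to 0.537 at most, as a one-sided test gives.

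Calls used the authors' FDR under 0.05. Windows were matched on strand and gene name with at least 0.5 of the bases of each shared. Named were every called RBM window and the most enriched window of up to 25 genes; windows of RBM5, RBM6, RBM10, RBM3 and the start windows were added after their values were seen. Members and lists were chosen with earlier results of these data known. Deposited coordinates start from 0 and are printed from 1. Python 3.11.15, pandas 2.3.3, numpy 2.4.6, scipy 1.17.1 and matplotlib 3.10.9 were used, and steps were tested on simulated data. No genome was used, so exons and window sequences are not analysed here.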

Additional observations from a re-analysis of the deposited data

How the results depend on the processing

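Counting only log2 fold changes of 1 or more in size, lower calls for sgMETTL16-1 in replicate 1 numbered 1 in place of 5, and higher calls in replicate 2 numbered 0 in place of 1 for each guide. A fold enrichment of at least 2 left 1 lower call in each replicate 1 table, 0 higher calls in each replicate 2 table, and 11 and 12 enriched windows for sgMETTL16-1 (replicates 1 and 2) and 15 and 11 for sgMETTL16-2. For sgMETTL16-2 in replicate 1, lower calls numbered 2 in place of 4 with an FDR of 0.01, and 2 among enriched windows alone. The median over listed RBM windows moved by more than the SD of the 2 tables of a guide in 5 cases. With enriched windows alone it was 0.11 in place of -0.0029 for sgMETTL16-1 in replicate 2, and 0.071 in place of -0.16, on the other side of 0, for sgMETTL16-2 in replicate 1. Centring on the median of enriched windows gave -0.14 for sgMETTL16-1 in replicate 2. For sgMETTL16-2 it gave -0.28 in replicate 1 and -0.15 in replicate 2. The other 74 counts and medians under an alternative stayed within 1.5 times the count or within that SD. Some of these could not change: where the main count was 0, settings that only take a part of the called windows give 0 again. Though within that SD, the median of sgMETTL16-2 in replicate 2 (-0.02) also turned to 0.06 with enriched windows alone and to 0.02 with the mean per gene. A two-sided p ended the RBM12B call (FDR 0.119), and a shift by the median of enriched windows ended those of RBM12B (0.0513) and RBM28 (0.0849) and added RBM25 as lower for sgMETTL16-2 in replicate 1 (0.000177). Deposited p-values adjusted again, an alternative chosen after seeing the data, gave the same RBM counts within that range. Means over the 2 tables of a guide turned with the table left out: RBM25 gave -0.40 and 0.43 around 0.01 for sgMETTL16-1 and -0.18 and 0.38 around 0.10 for sgMETTL16-2. RBM39 gave -0.47 and 0.24 around -0.12, and RBM28 -0.92 and 0.068 around -0.42, both for sgMETTL16-1. The cause was not tested. No paired analysis was possible because the tables hold no value per library.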
